A study of Mus musculus with 4 samples.

Results

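The 8 genes described here encode transcription factors that carry the output of the circadian clock or feed back on it, namely Dbp, Tef, Hlf, Nfil3, Bhlhe40, Bhlhe41, Rora and Rorb. They were taken by symbol, matched to their Ensembl gene IDs in the mouse build GRCm38, and all 8 were found among the 26328 genes listed in at least 1 sample and among the 18436 genes tested. RNA-seq was performed on poly(A) RNA from the hippocampus of male C57BL/6 mice, with 2 wild-type (WT) and 2 LSD1 knock-in (KI) samples. The KI mice are of the Lsd1 SA/SA line, in which the serine of LSD1 that PKCα phosphorylates is replaced by alanine, and the WT mice were littermates. LSD1 is a histone lysine demethylase that works with the corepressor CoREST, and its phosphorylation by PKCα had been linked to circadian rhythmicity. The samples form no time series, so rhythmicity itself was not tested. The labels give mice of 8 to 15 weeks, on 12 h of light and 12 h of darkness, for the behavioural work. The age of the mice sequenced, the hour at which the hippocampi were taken and the number of mice behind each sample are not given in the sources used here. A difference in level therefore cannot be told apart from a difference in daily phase or hour of collection.

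The clock is a loop in which the activators CLOCK, NPAS2 and BMAL1 (gene Arntl) drive genes through the E-box, among them Per and Cry genes whose proteins block the same activators. The PAR bZIP proteins DBP, TEF and HLF activate genes through the D-box, and NFIL3 (E4BP4) represses through the same element. BHLHE40 (DEC1) and BHLHE41 (DEC2) are bHLH repressors that bind E-boxes. The nuclear receptors RORA and RORB activate through the RORE, the element at which REV-ERBα (gene Nr1d1) represses. In many tissues Dbp has a wide daily rhythm, Bhlhe40 is also induced by neuronal activity, and Rorb marks layer 4 of the sensory neocortex.

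The authors deposited RPKM, the reads on a gene scaled to its exon length and to the depth of the sample, so that levels of different genes can be compared per length. Depth, worked out from the whole-read steps of the values, was about 13410000 and 8830000 mapped reads in WT 1 and WT 2 and about 14380000 and 14950000 in KI 1 and KI 2. Kdm1a, which encodes LSD1, was at 10.97 to 11.63 RPKM in all 4 samples, which does not check the genotype, since the knock-in exchanges 1 residue. All 8 hippocampus markers chosen were detected in all 4 samples. KI 1 stood apart in Ttr, a choroid plexus gene, at 51.3 RPKM against 8.13 to 13.8 RPKM in the other samples, and in Wfs1, a gene of CA1 pyramidal cells, at 28.6 RPKM against 41.2 to 50.9 RPKM. In whole tissue, fewer cells of a type and less RNA per cell cannot be told apart, and since no source ties the samples to separate mice, the p-values measure the spread between these samples.

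By the ratio of mean RPKM in KI to that in WT, Bhlhe40 was at 0.825 and Nfil3 at 0.839, while Rorb was at 1.24, Bhlhe41 at 1.15 and Dbp at 1.09. Tef, Hlf and Rora were at 0.957, 0.983 and 0.983. In Dbp, Bhlhe41 and Rorb the lower KI value exceeded the higher WT value, in Nfil3 and Bhlhe40 both KI samples were below both WT samples, and in the other 3 the groups overlapped. Samples that separate in this way are said to lie apart below. Of all 18436 genes tested, 24.0% lay above, 18.1% below and 42.2% apart in either direction, against which the 5 of 8 is to be read. With quantile normalization 6 of the 8 genes lay apart, while 19.2% of all genes tested lay above WT and 22.9% below. Then 45.6% of all genes that lay apart were above WT, against 56.9% of them as deposited. The threshold for a call was a limma adjusted p below 0.1 together with a 1.2-fold difference. It was passed by 0 of the 8 genes and by 0 of all genes tested (0.0%). The paper, which used another test, edgeR, reports both upregulated and downregulated genes in KI. The 0 of all genes tested therefore holds for limma on the deposited RPKM with 2 samples per group, a number of samples that the paper's test shared. Without adjustment, 1 of the 8, Bhlhe40, had a limma p under 0.05, as had 1774 of all genes tested (9.62%), 6.3% higher and 3.33% lower in KI. That count of the 8 was 0 without WT 1 or without WT 2, and 2 without KI 2, where Dbp joined Bhlhe40. Without KI 1, Dbp, Bhlhe41 and Rorb lay above WT and Nfil3 and Bhlhe40 below as they did with it. Tef and Hlf then lay below and Rora above, at log2 fold changes of -0.09, -0.05 and 0.0032. With KI 1 omitted, 39.6% of all genes tested lay above WT and 30.5% below. The median log2 fold change of the 8 genes was -0.02, against 0.01 over all genes tested.

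**Figure D1:**
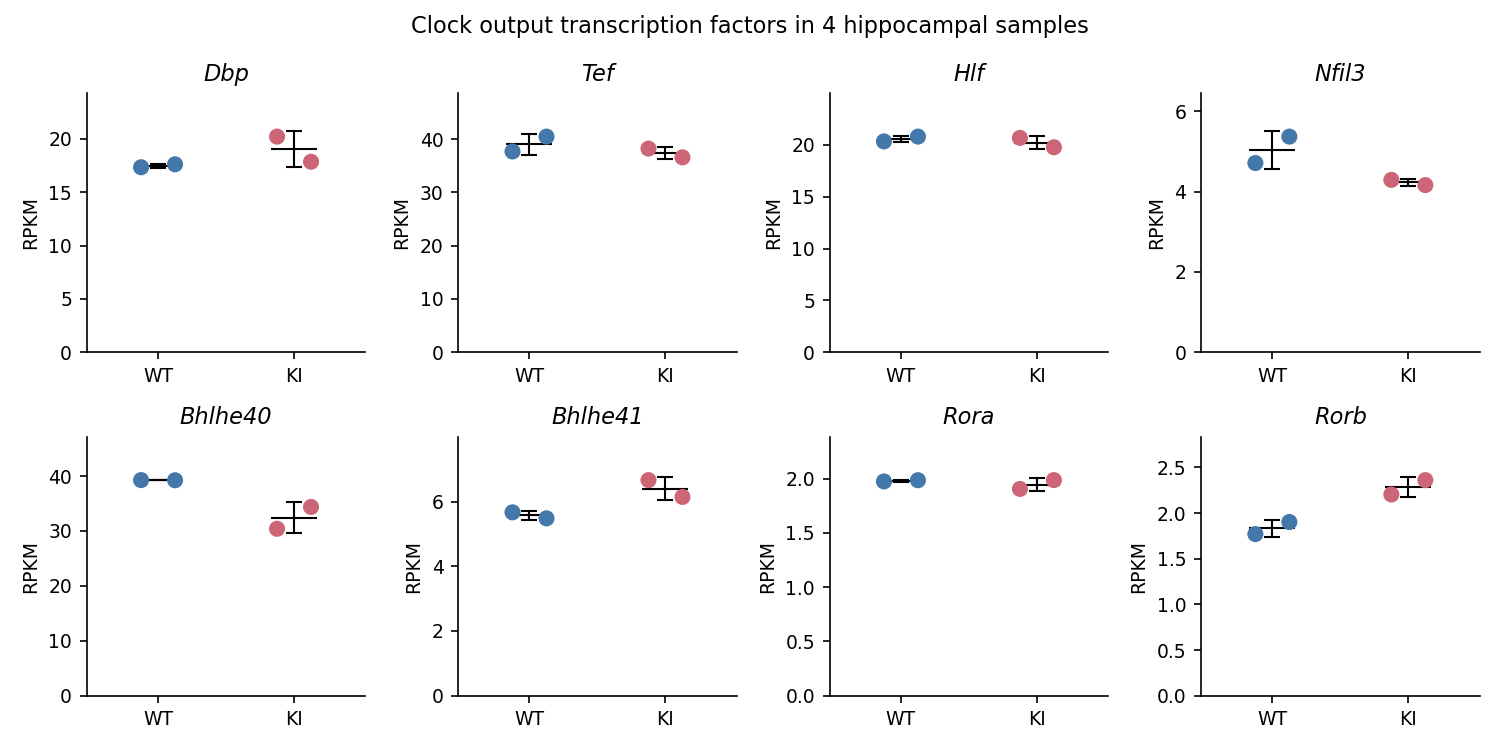
RPKM (vertical axes, from 0) of each of the 8 genes in WT (blue) and KI (red) hippocampus, 1 point per sample with replicate 1 on the left, and black bars for the mean ± SD of 2 samples. The groups lie apart in Dbp, Nfil3, Bhlhe40, Bhlhe41 and Rorb, and in Dbp the lower KI point, at 17.9 RPKM, almost meets the higher WT point, at 17.6 RPKM.

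Over all 4 samples the order of the mean levels was Tef (38.3 RPKM), Bhlhe40 (35.8 RPKM), Hlf (20.4 RPKM), Dbp (18.3 RPKM), Bhlhe41 (5.99 RPKM), Nfil3 (4.63 RPKM), Rorb (2.06 RPKM) and Rora (1.96 RPKM). Neighbours in this order overlapped over the 4 samples for Tef and Bhlhe40, for Hlf and Dbp, and for Rorb and Rora, and did not for the rest. Tef was above 91.4% of the genes tested and Rora above 24.8%, so the set runs from abundant to scarce messages. Bhlhe40 was the member with the widest range over the samples, 0.36 on the log2(RPKM + 1) scale.

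Of the PAR bZIP activators Dbp lay apart, and Tef and Hlf overlapped. Dbp (ENSMUSG00000059824, chromosome 7, 45705088 to 45710203 in GRCm38), the activator with the widest known daily rhythm of the 3, was at 17.3 and 17.6 RPKM in WT 1 and WT 2 and at 20.2 and 17.9 RPKM in KI 1 and KI 2. The KI values differed from each other by more than the nearer one differed from WT, and KI 1 was the high sample. The log2 fold change of Dbp was 0.11 (limma standard error 0.07, 95% interval -0.08 to 0.31, adjusted p = 0.667), and without KI 1 it was 0.03. When the values of each sample were rescaled to the same total, the groups overlapped. The 3′ end of Dbp shares 539 exon bases, 18.0% of its exon length, with the opposite strand gene Sphk2, a sphingosine kinase, which was at 11.7 RPKM in both WT samples and at 13.7 and 13.1 RPKM in KI 1 and KI 2. The counting is not stated to use strand, so reads of the shared bases cannot be told apart.

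Tef (ENSMUSG00000022389, chromosome 15, 81802421 to 81826863) was at 37.7 and 40.5 RPKM in WT and at 38.2 and 36.6 RPKM in KI. The groups overlapped, and the log2 fold change was -0.06 (limma standard error 0.06, adjusted p = 0.776) with a 95% interval from 0.861 to 1.07 as a ratio on the RPKM + 1 scale. Hlf (ENSMUSG00000003949, chromosome 11, 90336536 to 90390895), the third activator, was at 20.3 and 20.8 RPKM in WT and at 20.7 and 19.8 RPKM in KI. Its log2 fold change was -0.02 (limma standard error 0.05, adjusted p = 0.922), with an interval from 0.893 to 1.08 as a ratio on the same scale. These intervals give the uncertainty of the limma estimates with 2 samples per group and are not limits of detection. A larger difference, that of Bhlhe40 at a ratio of 0.825, did not pass the threshold either. The sum of Dbp, Tef and Hlf was 75.4 and 78.9 RPKM in WT and 79.1 and 74.2 RPKM in KI, and the groups overlapped. Within this sum the share of Dbp was 23.0% and 22.3% in WT and 25.5% and 24.1% in KI. The share of Tef was 50.01% and 51.3% in WT and 48.3% and 49.3% in KI. Both shares lay apart, in opposite directions. Shares of the same sum are tied, since a higher share of Dbp lowers the others, so these are not separate results.

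Nfil3 (ENSMUSG00000056749, chromosome 13, 52967209 to 52981073), the repressor at the D-box, was at 4.71 and 5.37 RPKM in WT and at 4.29 and 4.16 RPKM in KI. Both KI values were the lower ones, and the WT values lay farther from each other than the lower of them lay from KI. The log2 fold change was -0.21 (limma standard error 0.09, 95% interval -0.44 to 0.03, adjusted p = 0.547), and it was -0.13 without WT 2, the sample of lowest depth. Nfil3 rested on 128 and 96 reads in WT and on 125 and 126 reads in KI. The exact Poisson intervals at 95%, which cover counting error only, ran from 4.35 to 6.55 RPKM in WT 2 and from 3.57 to 5.11 RPKM in KI 1 and overlapped. The ratio of the activators' sum to Nfil3 was 16.0 and 14.7 in WT and 18.4 and 17.8 in KI, and the ratio of Dbp to Nfil3 was 3.68 and 3.28 in WT and 4.71 and 4.29 in KI. Both ratios lay apart, higher in KI, and take their direction from the same Nfil3 and Dbp values.

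Of the bHLH repressors, Bhlhe40 was lower and Bhlhe41 higher in both KI samples. Bhlhe40 (ENSMUSG00000030103, chromosome 6, 108660629 to 108666925) was at 39.3 and 39.2 RPKM in WT and at 30.4 and 34.4 RPKM in KI. The WT values nearly coincided, KI 1 was the lowest, and the gap between the groups was wider than the difference between the KI samples. The log2 fold change was -0.27 (limma standard error 0.07, 95% interval -0.46 to -0.08), with an adjusted p of 0.436, the smallest of the 8 genes. Of all genes tested, 4.12% had a log2 fold change at least as far in the same direction. Without KI 1 the log2 fold change was -0.19, and both KI values lay below WT. A short stretch of 118 bases at the start of Bhlhe40 is shared with 0610040F04Rik on the opposite strand, an antisense gene at 12.1 and 11.7 RPKM in WT and at 8.02 and 8.91 RPKM in KI, also lower in both KI samples.

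Bhlhe41 (ENSMUSG00000030256, chromosome 6, 145858243 to 145865558), on the same chromosome and the less abundant of the pair, was at 5.67 and 5.48 RPKM in WT and at 6.66 and 6.14 RPKM in KI. Its log2 fold change was 0.17 (limma standard error 0.08, 95% interval -0.03 to 0.37, adjusted p = 0.553), and 16.2% of all genes tested had one at least as high. The gene Gm43909 on the opposite strand overlaps 1280 bases of its exons, and no file lists it. The ratio of Bhlhe40 to Bhlhe41 was 6.93 and 7.16 in WT and 4.56 and 5.59 in KI, and their sum was 44.9 and 44.7 RPKM in WT and 37.1 and 40.5 RPKM in KI. Both were lower in both KI samples, and the ratio combines the opposite directions of its parts.

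The receptors were the scarcest members. Rora (ENSMUSG00000032238, chromosome 9, 68653786 to 69388246), also a gene of astrocytes and Purkinje cells, was at 1.97 and 1.98 RPKM in WT and at 1.90 and 1.99 RPKM in KI. The log2 fold change of -0.02 had a limma standard error of 0.09 and an adjusted p of 0.975, with a 95% interval from 0.832 to 1.17 as a ratio on the RPKM + 1 scale. Rorb (ENSMUSG00000036192, chromosome 19, 18930605 to 19111196) was at 1.77 and 1.90 RPKM in WT and at 2.20 and 2.36 RPKM in KI. Both KI values were higher, and the gap to WT was wider than the difference within either group. The log2 fold change of Rorb was 0.21 (limma standard error 0.10, 95% interval -0.05 to 0.47, adjusted p = 0.562), and 0.30 with a pseudocount of 0.1, since a pseudocount of 1 understates changes at this level. Rorb rested on 263 and 186 reads in WT and on 351 and 391 reads in KI, with exact Poisson intervals from 1.64 to 2.20 RPKM in WT 2 and from 1.98 to 2.45 RPKM in KI 1. The ratio of Rorb to Rora was 0.897 and 0.959 in WT and 1.16 and 1.19 in KI, and takes its direction from the same Rorb values. By RPKM, Rora was the higher of the pair in both WT samples and Rorb in both KI samples. Within every sample, however, the exact Poisson intervals of the pair overlapped. Those of Rora ran from 1.74 to 2.26 RPKM in WT 2 and from 1.71 to 2.11 RPKM in KI 1. The order of the pair is therefore not settled in any sample.

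**Figure D2:**
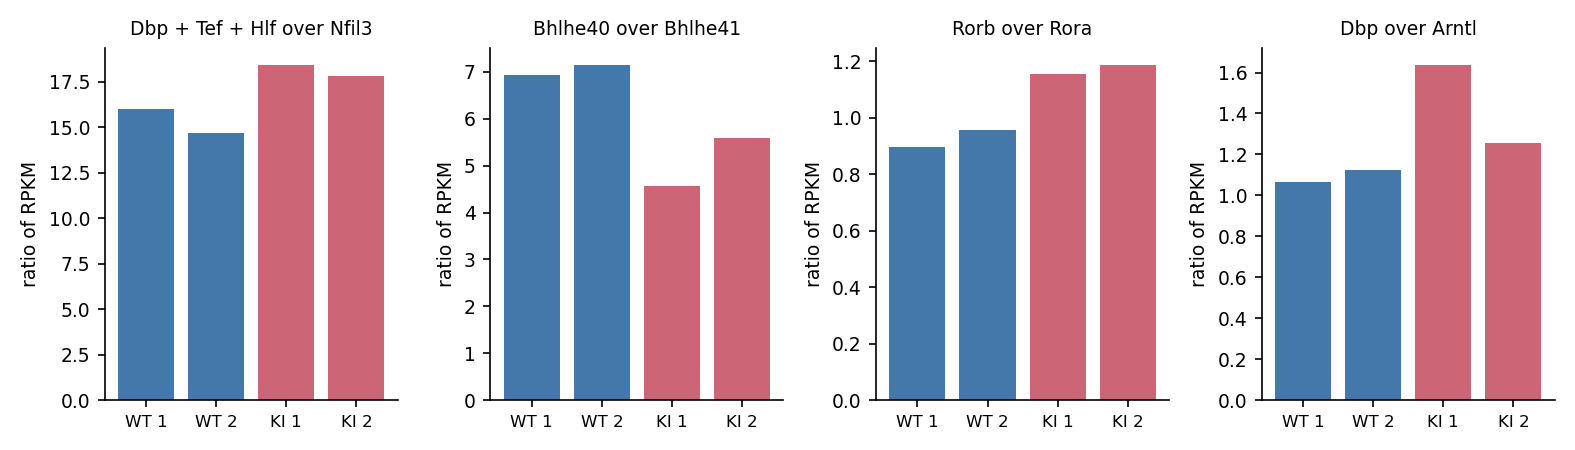
Ratios of RPKM within each sample (vertical axes, from 0), 1 bar per sample, WT in blue and KI in red. The ratio of Dbp, Tef and Hlf together to Nfil3, that of Rorb to Rora and that of Dbp to Arntl are higher in both KI samples, and that of Bhlhe40 to Bhlhe41 is lower, from 4.56 to 5.59 against 6.93 to 7.16.

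RefSeq promoter windows of GRCm38.p6, 300 bases from 250 before to 50 after a start, were found for 7 of the 8 genes, all but Bhlhe40, with 9 windows in all since Tef and Rorb have 2 starts each. They were searched on both strands for the E-box (CACGTG), the D-box (TTATGTAA or TTACGTAA), the core of the RORE (AGGTCA) and the CRE (TGACGTCA), the element of activity-induced transcription. Bhlhe41 and both starts of Tef held 1 E-box each, which 7.15% of the 32851 windows of all genes hold. Nfil3 held 1 RORE core, read here on the other strand as TGACCT, which 16.3% of all windows hold, and Hlf held 1 CRE, which 1.79% hold. The windows of Dbp, Rora and Rorb held none of these letters, and no member held a D-box, which 1.06% of all windows hold. The 250 bases before the start are shown for the windows with an E-box or a RORE core, the elements through which the clock loop acts, with the match in capitals. A match is a stretch of letters, not a measured binding site.
Bhlhe41 (chr6:145865421-145865670, minus strand): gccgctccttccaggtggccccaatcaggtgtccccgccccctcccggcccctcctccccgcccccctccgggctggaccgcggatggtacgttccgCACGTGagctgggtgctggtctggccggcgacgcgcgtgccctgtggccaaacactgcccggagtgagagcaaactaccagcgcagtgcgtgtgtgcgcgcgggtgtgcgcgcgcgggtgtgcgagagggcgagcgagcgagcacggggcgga
Tef, upstream start (chr15:81802423-81802672, plus strand): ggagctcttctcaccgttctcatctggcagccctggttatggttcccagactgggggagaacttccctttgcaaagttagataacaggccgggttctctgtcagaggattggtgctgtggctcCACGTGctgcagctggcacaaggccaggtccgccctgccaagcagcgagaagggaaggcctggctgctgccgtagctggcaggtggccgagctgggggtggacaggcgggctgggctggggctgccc
Tef, downstream start (chr15:81811164-81811413, plus strand): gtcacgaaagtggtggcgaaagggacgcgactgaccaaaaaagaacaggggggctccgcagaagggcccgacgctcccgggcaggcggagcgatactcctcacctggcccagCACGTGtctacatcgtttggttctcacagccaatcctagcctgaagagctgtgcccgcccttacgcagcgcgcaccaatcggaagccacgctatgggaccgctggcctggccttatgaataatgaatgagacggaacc
Nfil3 (chr13:52981040-52981289, minus strand): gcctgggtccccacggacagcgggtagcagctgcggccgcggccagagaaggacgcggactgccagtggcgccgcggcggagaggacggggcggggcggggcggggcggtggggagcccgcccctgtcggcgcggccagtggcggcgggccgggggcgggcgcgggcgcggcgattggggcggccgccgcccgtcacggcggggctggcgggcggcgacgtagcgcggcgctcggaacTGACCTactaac
The E-box begins 153 bases before the start in Bhlhe41, and 127 and 138 bases before the starts of Tef, and the RORE core begins 12 bases before the start in Nfil3. Bhlhe41 and Tef, the members with an E-box here, had ratios of KI to WT of 1.15 and 0.957. Bhlhe41 was higher in both KI samples, while in Tef the groups overlapped. The limma intervals of both genes include no difference, so the limma fit assigns no direction to either. Whether the E-box bears on the levels in KI was not tested.

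The genes of the clock loop itself were set beside its output factors. Of 12 loop genes, all were tested, 0 passed the limma threshold, 2 lay above and 4 below WT in both KI samples, and the median log2 fold change was -0.0077. Over all genes tested 24.0% lay above, 18.1% lay below and the median was 0.01, and the counts of the lists that follow are to be read against these. Arntl, which encodes the activator BMAL1, was at 16.2 and 15.7 RPKM in WT and at 12.3 and 14.2 RPKM in KI, lower in both KI samples (log2 fold change -0.25, limma adjusted p = 0.490). Nr1d1 was at 92.2 and 101 RPKM in WT and at 90.4 and 97.2 RPKM in KI, and the groups overlapped. Per1, at 15.9 and 15.4 RPKM in WT and 16.2 and 14.5 RPKM in KI, and Per2, at 8.51 and 7.78 RPKM in WT and 9.32 and 7.90 RPKM in KI, overlapped as well. The ratio of Dbp to Arntl, whose rhythms are known to peak at opposite times of day, was 1.07 and 1.12 in WT and 1.64 and 1.25 in KI. It takes its direction from the same Dbp and Arntl values, with KI 1 farthest from WT, and is not a separate result. Without the hour of collection it cannot be read as a phase.

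The other loop genes that lay apart with a ratio of at least 1.2-fold were Arntl2, a paralog of Arntl, and Ciart, a repressor of the loop also called Chrono. Arntl2 was at 3.69 and 5.31 RPKM in WT and at 3.58 and 3.55 RPKM in KI. Ciart was at 4.25 and 3.56 RPKM in WT and at 3.48 and 2.81 RPKM in KI, with WT 2 and KI 1 almost equal. Of all genes tested, 10.3% lay apart with such a ratio upward and 5.32% downward.

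**Figure D3:**
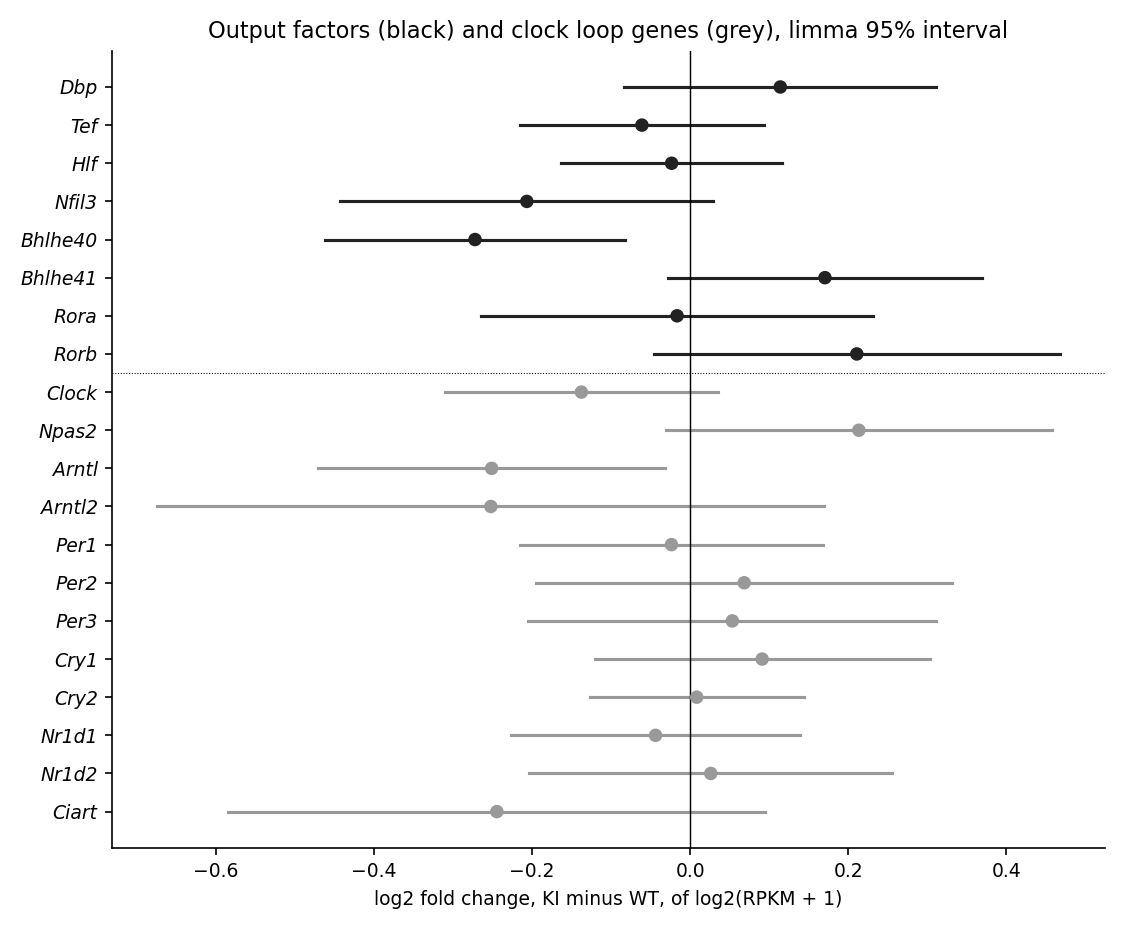
Log2 fold change, KI minus WT, of log2(RPKM + 1) (horizontal axis) with its limma 95% interval for the 8 output factors (black) and 12 clock loop genes (grey), 1 row per gene. Of the output factors only the interval of Bhlhe40, from -0.46 to -0.08, leaves out 0.

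Of 9 genes of clock kinases and protein turnover, 0 passed the limma threshold, 2 lay above and 4 below WT. Among these 9, Fbxl21, an F-box protein that acts on cryptochromes, met the rule of 1.2-fold, at 0.715 and 0.709 RPKM in WT and 0.870 and 0.907 RPKM in KI. Of 8 further clock-controlled genes, 0 passed, 2 lay above and 0 below WT, and the median log2 fold change was 0.08, against 0.01 over all genes tested. Pdxk, which encodes pyridoxal kinase and is a known target of the PAR bZIP factors in brain, was 1 of the 2, at 21.7 RPKM in both WT samples and 24.8 and 23.7 RPKM in KI (log2 fold change 0.16, limma adjusted p = 0.490). The other was Tsc22d3, a gene induced by glucocorticoids, at 8.79 and 9.08 RPKM in WT and 11.04 and 10.1 RPKM in KI. Pdxk and Tsc22d3 are named as the 2 genes behind this count, after their values were seen.

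Since Bhlhe40 can be induced by neuronal activity, the immediate early genes, which activity induces within minutes, were set beside it. Of 10 such genes 9 were tested, 0 passed the limma threshold, 5 lay above and 0 below WT, and the median log2 fold change was 0.14, against 24.0% above, 18.1% below and a median of 0.01 over all genes tested. Npas4 was at 4.87 and 3.46 RPKM in WT and at 6.01 and 6.92 RPKM in KI, Arc at 61.7 and 52.3 RPKM in WT and at 70.1 and 69.8 RPKM in KI, and Fos at 4.56 and 3.90 RPKM in WT and at 5.38 and 4.98 RPKM in KI. These 3 are named by the rule of 1.2-fold, and Fosb, Junb, Ier2 and Dusp1 overlapped between the groups.

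Markers of regions and cell types were set beside the members, and 0 of them passed the limma threshold. Their counts stand against the 24.0% of all genes tested that lay above WT and the 18.1% that lay below, and the markers named were chosen after their values were seen. Of the 8 hippocampus markers, 1 lay above and 3 below WT, and their summed level was 287 to 288 RPKM in WT and 265 to 283 RPKM in KI. The 3 lower ones, Prox1, C1ql2 and Dsp, are genes of dentate granule cells. Their sum was 69.0 and 70.6 RPKM in WT and 45.9 and 54.8 RPKM in KI. Of the CA1 genes of the list, Fibcd1 was at 33.5 to 34.9 RPKM in all 4 samples, and Wfs1 was at 42.2 and 41.2 RPKM in WT and at 28.6 and 50.9 RPKM in KI. The part of dentate tissue in the lower Bhlhe40 values was not tested.

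Of the 8 neocortex markers, 4 lay above and 0 below WT, against 24.0% and 18.1% of all genes tested, and their summed level was 56.8 to 62.1 RPKM in WT and 65.9 to 66.5 RPKM in KI. The 4 were Rspo1, Cux2, Tshz2 and Lamp5, and Scnn1a, which like Rorb marks layer 4, was at 2.45 and 2.82 RPKM in WT and at 2.34 and 2.64 RPKM in KI, where the groups overlapped. Of the 8 thalamus markers 6 were tested, 3 lay above and 1 below WT, and their summed level was 20.6 to 20.7 RPKM in WT and 22.9 to 28.1 RPKM in KI. Gbx2 had no row for WT 1 and KI 2 and was set to 0 there. Tcf7l2, a defining gene of thalamus, was at 0.418 and 0.454 RPKM in WT and at 0.350 and 0.375 RPKM in KI. It was lower in both KI samples, but its level was too low to be tested, so these counts leave it out. The part of neighbouring tissue in the higher Rorb values was not tested. Of the 8 striatum markers 4 lay above and 1 below WT, with sums of 41.2 to 43.7 RPKM in WT and 46.2 to 49.2 RPKM in KI.

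Of the 6 astrocyte markers, 3 lay above and 1 below WT, with sums of 453 to 462 RPKM in WT and 476 to 490 RPKM in KI. Of the 4 microglia markers 2 lay above and 1 below WT, and their sums of 52.7 to 52.8 RPKM in WT and 50.7 to 55.0 RPKM in KI overlapped. The sums of the 4 oligodendrocyte markers, 607 to 706 RPKM in WT and 581 to 764 RPKM in KI, overlapped too. Of the 5 choroid plexus markers 3 were tested and 1 lay above WT, with sums of 14.1 to 19.7 RPKM in WT and 16.5 to 60.6 RPKM in KI, and Kcnj13 had no row for WT 2 and was set to 0 there.

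**Figure D4:**
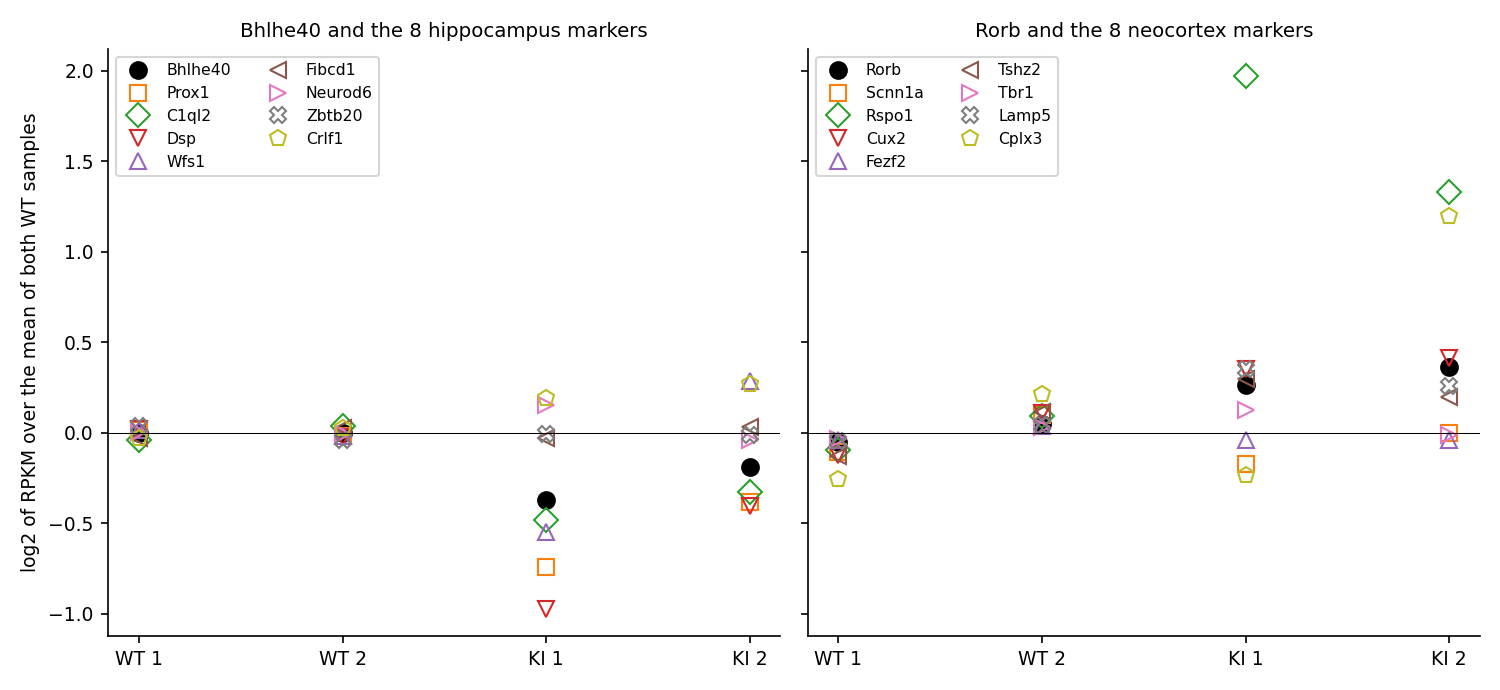
Log2 of RPKM over the mean of both WT samples (vertical axis) in each sample, for Bhlhe40 (filled) with the 8 hippocampus markers on the left and for Rorb (filled) with the 8 neocortex markers on the right. Bhlhe40 lies with Prox1, C1ql2 and Dsp below WT in KI 1 and KI 2, and Rorb lies with Cux2, Lamp5 and Tshz2 above WT in both.

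Over the 4 samples, the genes whose pattern was most like that of Bhlhe40, the member of widest range, were Gm5915, E130218I03Rik and Slc29a4, with root mean square differences of 0.0088, 0.0100 and 0.0100 in centred log2(RPKM + 1). Slc29a4, a monoamine transporter of the plasma membrane, was at 14.3 and 14.5 RPKM in WT and at 10.9 and 12.4 RPKM in KI. Of the other 7 members the nearest to Bhlhe40 was Nfil3, at 0.098, and the farthest Rorb, at 0.245. With 4 samples and 18436 genes, close matches of this kind are a description of these libraries.

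**Figure D5:**
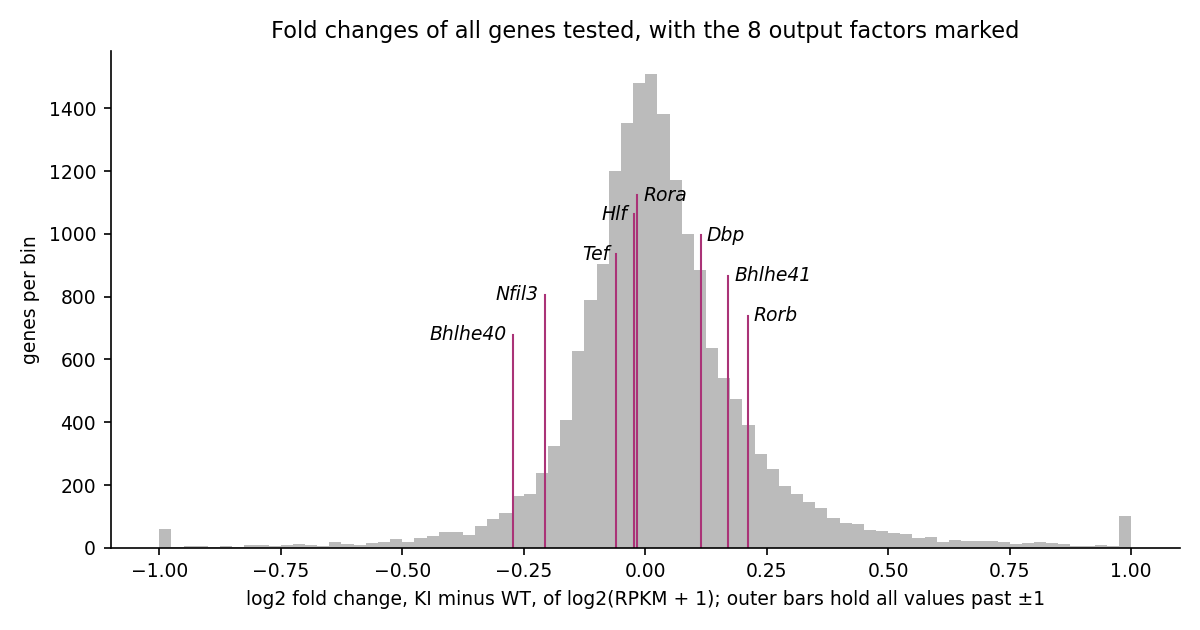
Number of genes (vertical axis) by log2 fold change, KI minus WT, of log2(RPKM + 1) (horizontal axis), over the 18436 genes tested, with lines, of heights set only for legibility, at the 8 output factors. Bhlhe40, at -0.27, lies farthest to the left of the 8 and Rorb, at 0.21, farthest to the right, and the outer bars hold all values past ±1.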

How the data were processed

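RNA-seq was performed on poly(A) RNA of 2 WT and 2 KI hippocampal samples. The authors aligned read pairs to mm10 with GSNAP, used pairs that mapped properly and to 1 place, and deposited RPKM per gene of Ensembl release 74, 1 file per sample. The counting tool is not given in the sources used here. A gene absent from a file was set to 0. Symbols, positions and exon lengths came from GENCODE M21 (GRCm38, the build of mm10).

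Groups were compared with limma (version 3.58.1, R 4.3.3) on log2(RPKM + 1), with eBayes fitted to the trend of variance on level and p adjusted by Benjamini-Hochberg, over the 18436 genes that reached 0.5 RPKM in 2 samples or more. This scale understates the fold changes of low genes. The study's own test needs read counts, so limma took its place, and the fold threshold was 1.2, with 1.5 as an alternative. An exact permutation test of 2 against 2 samples cannot give a p under 0.333. Depth was read from values worth 1 read, and reads per gene are given only where all 4 came out whole within 0.02 reads. The limma code was tested on simulated data. All 8 genes are named. Other genes of the pathway lists are named where the groups lay apart with a ratio of at least 1.2, and Per1, Per2, Nr1d1 and Arntl always. Of the clock loop list, 1 gene is not reported here. The genes and lists were chosen with earlier results of these data known. Python 3.11.15, pandas 2.3.3, numpy 2.4.6, scipy 1.17.1 and matplotlib 3.10.9 served for the rest.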

Additional observations from a re-analysis of the deposited data

How the results depend on the processing

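Of 88 fold changes of the 8 genes under 11 alternatives, 86 kept their direction. The exceptions were Hlf and Rora. With each sample omitted once, Hlf ranged from -0.0543 without KI 1 to 0.0073 without KI 2, and Rora from -0.0365 without KI 2 to 0.0032 without KI 1. The number of the 8 genes past the threshold was 0 under every alternative. The number of all genes past it was 0 except without the mean-variance trend, where it was 20. The number of the 8 genes with an unadjusted limma p under 0.05 was 2 with quantile normalization (Bhlhe40 and Nfil3) and without the trend (Bhlhe40 and Rorb), and its range with each sample omitted once was 0 to 2. The log2 fold change of Bhlhe40 stayed at -0.27 without WT 1 and without WT 2, with a larger limma standard error than with all 4 samples. The number that lay apart was 6 with median-of-ratios and quantile scaling, where Rora was added below WT, with a range of 5 to 8 over omitted samples, since fewer samples separate more easily. Of all genes that lay apart, 56.9% were above WT, and 45.6% with quantile normalization.

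With a replicate block in the model, the number of genes past the threshold was 0, and the unadjusted limma count of the 8 was 1. Samples sharing a number had deviations with a Pearson correlation of -0.025 across 18436 genes, which are not independent replicates, so the numbers were not taken to pair the samples. Depth limits Nfil3, Rora and Rorb most, and 2 samples per group limit all 8.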
